A study of Mus musculus with 27 samples.

Results

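The TGF-β ligands and receptors described here are 10 mouse genes, taken by exact symbol from the 21850 features of a bulk RNA-seq count table. They comprise the ligands Tgfb1, Tgfb2 and Tgfb3, the receptors Tgfbr1, Tgfbr2 and Tgfbr3, the latent TGF-β binding protein genes Ltbp1 and Ltbp2, the inhibitory SMAD gene Smad7 and the TGF-β-induced matrix gene Tgfbi. All 10 symbols were found, each in 1 row, and the rule used names and no measured value. They were followed through 27 libraries in 9 groups of 3.

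TGF-β is secreted as a latent complex that latent TGF-β binding proteins tether to the extracellular matrix, and the ligand has to be released before it can signal. The free ligand binds the type II receptor (Tgfbr2), which recruits and phosphorylates the type I receptor (Tgfbr1), and the active type I kinase phosphorylates SMAD2 and SMAD3. Betaglycan (Tgfbr3) is a co-receptor that presents ligand, TGF-β2 above all, to the type II receptor. Smad7 is switched on by the pathway and feeds back to inhibit the type I receptor. In the liver the pathway is known for restraining hepatocyte growth and for driving portal fibroblasts and stellate cells to make matrix in fibrosis.

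The study compared freshly isolated hepatocytes, hepatocyte organoids (HepOrgs) and periportal assembloids, all from adult mice of both sexes with a C57BL/6 background. Primary hepatocytes were grown as HepOrgs in HM-Wnt, an expansion medium with EGF, HGF, FGF7, FGF10, RSPO1 and WNT conditioned media, CHIR, gastrin, nicotinamide, ROCK inhibitor and 1 µM A83-01, which inhibits the TGF-β type I receptor and its activin and nodal relatives. At passage 2 the organoids were either kept in HM-Wnt or moved to MM, a medium that keeps the 30% WNT conditioned medium and the ROCK inhibitor of HM-Wnt and lacks A83-01 and the other additions, and both arms were collected after 7 days (1 week) and 14 days (2 weeks). Assembloids combined 10 HepOrgs, 1000 cholangiocytes grown from ductal organoids and sorted portal mesenchymal cells positive for a PDGFRα reporter and SCA1, and were kept in MM for 7 days (1 week) or 18 days (2.5 weeks). Homeostatic assembloids received 250 mesenchymal cells and fibrotic-like assembloids 2500. The organoid and assembloid groups are labelled wild type, although the reporter alleles of the mesenchymal cells and the nuclear tdTomato allele of the cholangiocytes are part of the study's methods. The third hepatocyte library is titled wild type and carries MDR2-het in its genotype field. It was kept under its title, and the calls against hepatocytes are given without it as well. Nothing in the labels says whether replicates are separate cultures or animals, so p-values measure only the spread between these libraries. The RNA comes from whole cultures, in which fewer cells of a type and less RNA per cell cannot be told apart.

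Libraries held 30289364 to 65348596 counts (median 43727965). Homeostatic 1-week replicate 2 stood apart. It had counts for 8463 features against 14014 to 16016 in the other 26 libraries, its Pearson correlation with any of them lay between 0.573 and 0.737, and its 6 hepatocyte markers summed to 2293 CPM (a gene's count in a library scaled to 1000000 counts) against 38040 and 81250 in the other replicates of its group. Fibrotic-like 1-week replicate 3 was also low in hepatocyte markers, at 2710 CPM against 16950 and 20170, and so was fibrotic-like 2.5-week replicate 2, at 10290 CPM against 41910 and 50750, with 1632 CPM of the cholangiocyte keratin Krt19 against 197 and 191. Krt19 was also the highest of the group in homeostatic 1-week replicate 2 (1521 CPM against 14.2 and 126) and in fibrotic-like 1-week replicate 3 (932 CPM against 248.5 and 77.4). Hepatocyte markers summed to between 59620 and 93510 CPM in hepatocytes and between 19090 and 56360 CPM in HepOrgs, while the 6 cholangiocyte markers summed to between 11.8 and 139 CPM in hepatocytes and between 3494 and 14990 CPM in HepOrgs. Nearly all of the HepOrg sum was Spp1 (3426 to 14930 CPM), and Krt19, Epcam and Sox9 reached at most 21.8, 36.0 and 36.9 CPM there. The 10 mesenchyme markers (among them Pdgfra, Col1a1 and Dcn) summed to at most 249 CPM in any HepOrg library.

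Start-site windows are printed here for the genes that passed against hepatocytes in every HepOrg group and had a promoter entry. SMAD-binding elements near start sites are a known route by which the pathway acts on its own genes. Of the 10 genes, 7 had an entry in the RefSeq promoter table (build GRCm38.p6, 250 bases before to 50 after the start), and 3 are shown 5′ to 3′ on the gene's strand. Capitals mark motif matches on either strand, searched as CAGAC (the SMAD box), GGCGCC (a GC-rich SMAD motif), TGANTCA (AP-1), TGACGTCA (the cAMP response element), TATAAA (the TATA box) and GGGCGG (the Sp1 box).
Tgfb2, chr1:186705940-186706239, minus strand: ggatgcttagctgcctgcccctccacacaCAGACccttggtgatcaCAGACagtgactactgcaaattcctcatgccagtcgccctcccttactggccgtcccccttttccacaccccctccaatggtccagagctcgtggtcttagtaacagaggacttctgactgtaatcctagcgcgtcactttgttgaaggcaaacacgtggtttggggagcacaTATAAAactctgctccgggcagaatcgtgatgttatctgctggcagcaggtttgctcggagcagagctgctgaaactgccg
Tgfbr2, chr9:116175314-116175613, minus strand: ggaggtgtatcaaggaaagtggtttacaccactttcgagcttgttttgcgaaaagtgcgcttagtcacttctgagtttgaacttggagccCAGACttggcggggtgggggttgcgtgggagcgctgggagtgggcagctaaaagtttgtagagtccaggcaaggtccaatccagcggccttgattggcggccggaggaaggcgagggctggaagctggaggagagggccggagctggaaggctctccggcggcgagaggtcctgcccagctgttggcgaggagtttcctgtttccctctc
Tgfbi, chr13:56609336-56609635, plus strand: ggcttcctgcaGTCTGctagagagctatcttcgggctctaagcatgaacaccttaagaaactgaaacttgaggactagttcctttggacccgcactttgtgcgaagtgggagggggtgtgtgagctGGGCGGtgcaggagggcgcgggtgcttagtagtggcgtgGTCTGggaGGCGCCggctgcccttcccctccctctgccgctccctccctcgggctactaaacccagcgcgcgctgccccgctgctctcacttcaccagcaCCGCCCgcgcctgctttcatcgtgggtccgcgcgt
The Tgfb2 window holds SMAD boxes at -221 and -204 and a TATA box at -31 from the start. The Tgfbr2 window holds 1 SMAD box, at -160. The Tgfbi window holds SMAD boxes at -239 and -85, a GC-rich SMAD motif at -77 and Sp1 boxes at -124 and 15. Such letters are common. A SMAD box is found in 49.6% of 32851 promoter windows, a Sp1 box in 35.7%, a TATA box in 13.6%, the GC-rich motif in 11.9%, an AP-1 motif in 7.81% and a cAMP response element in 1.79%, so a match describes the sequence and is not evidence of binding.

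Tgfbr1 and Tgfbr2 were among the 4 most abundant of these transcripts in all 9 groups, and Tgfb2 was the highest ligand in HepOrgs and assembloids and the lowest in hepatocytes. Levels of different genes are compared per kilobase of annotated exon. In hepatocytes Tgfbr1 was at 5.43 CPM per kb, Smad7 at 5.32, Tgfbi at 3.54 and Tgfbr2 at 1.44, and the ligands were close to nothing, with Tgfb1 at 0.0749, Tgfb3 at 0.0704 and Tgfb2 at 0.0101 CPM per kb. In HepOrgs Tgfbr1 lay between 5.38 and 6.61 CPM per kb over the 4 groups, and Tgfbr2 between 4.90 and 6.71. Tgfb2 lay between 1.15 and 2.51 CPM per kb there, against at most 0.116 for Tgfb1 and 0.245 for Tgfb3. Tgfbr2 was above Tgfbr1 in 2-week HM-Wnt HepOrgs (6.71 and 5.74 CPM per kb) and in homeostatic 1-week assembloids (7.74 and 4.37), where Smad7 led at 7.97 through its value in replicate 2. In fibrotic-like assembloids Tgfbr2 led with 12.6 CPM per kb at 1 week and 16.6 at 2.5 weeks, ahead of Tgfbr1 at 10.9 and 7.75 and Tgfbi at 6.59 and 7.13. Tgfb3 reached 1.87 and 1.17 CPM per kb in those groups, below Tgfb2 at 3.37 and 2.84, and Tgfb1 stayed near 0.1 at both times (0.0875 and 0.103). No library held more than 53 counts of Tgfb1, so its values are imprecise.

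The 9 groups were ordered by mean level, and a gap means that the libraries of neighbouring groups in that order did not overlap. The share of all genes with such a gap was not counted, so gaps only describe these genes. Groups further apart in the order could still overlap. Homeostatic 1-week replicate 2 (0.0205 CPM of Tgfb2) lay within the hepatocyte range (0 to 0.128 CPM). Fibrotic-like 1-week replicate 3 (0.375 CPM of Tgfbr3 and 0.429 CPM of Tgfbi) lay below hepatocytes. Tgfb2 had 1 gap in its order, between the lowest HepOrg group (mean 7.21 CPM) and hepatocytes (0.0629 CPM). Tgfbr3 was highest in both fibrotic-like groups and in hepatocytes (6.84 CPM), and the gap came between hepatocytes and the homeostatic 1-week group (1.09 CPM). Tgfbi had the same gap, between hepatocytes (13.4 CPM) and the homeostatic 2.5-week group (0.488 CPM). Ltbp2 separated the 2.5-week homeostatic group (4.35 CPM), the 1-week MM HepOrgs (2.00 CPM) and the 2-week MM HepOrgs (0.607 CPM) from one another. Neighbouring groups of Tgfb3, Tgfbr1, Tgfbr2, Smad7 and Ltbp1 overlapped throughout. Tgfb1 separated its lowest group, the homeostatic 1-week assembloids (0.0338 CPM), from the next (0.202 CPM).

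**Figure D1:**
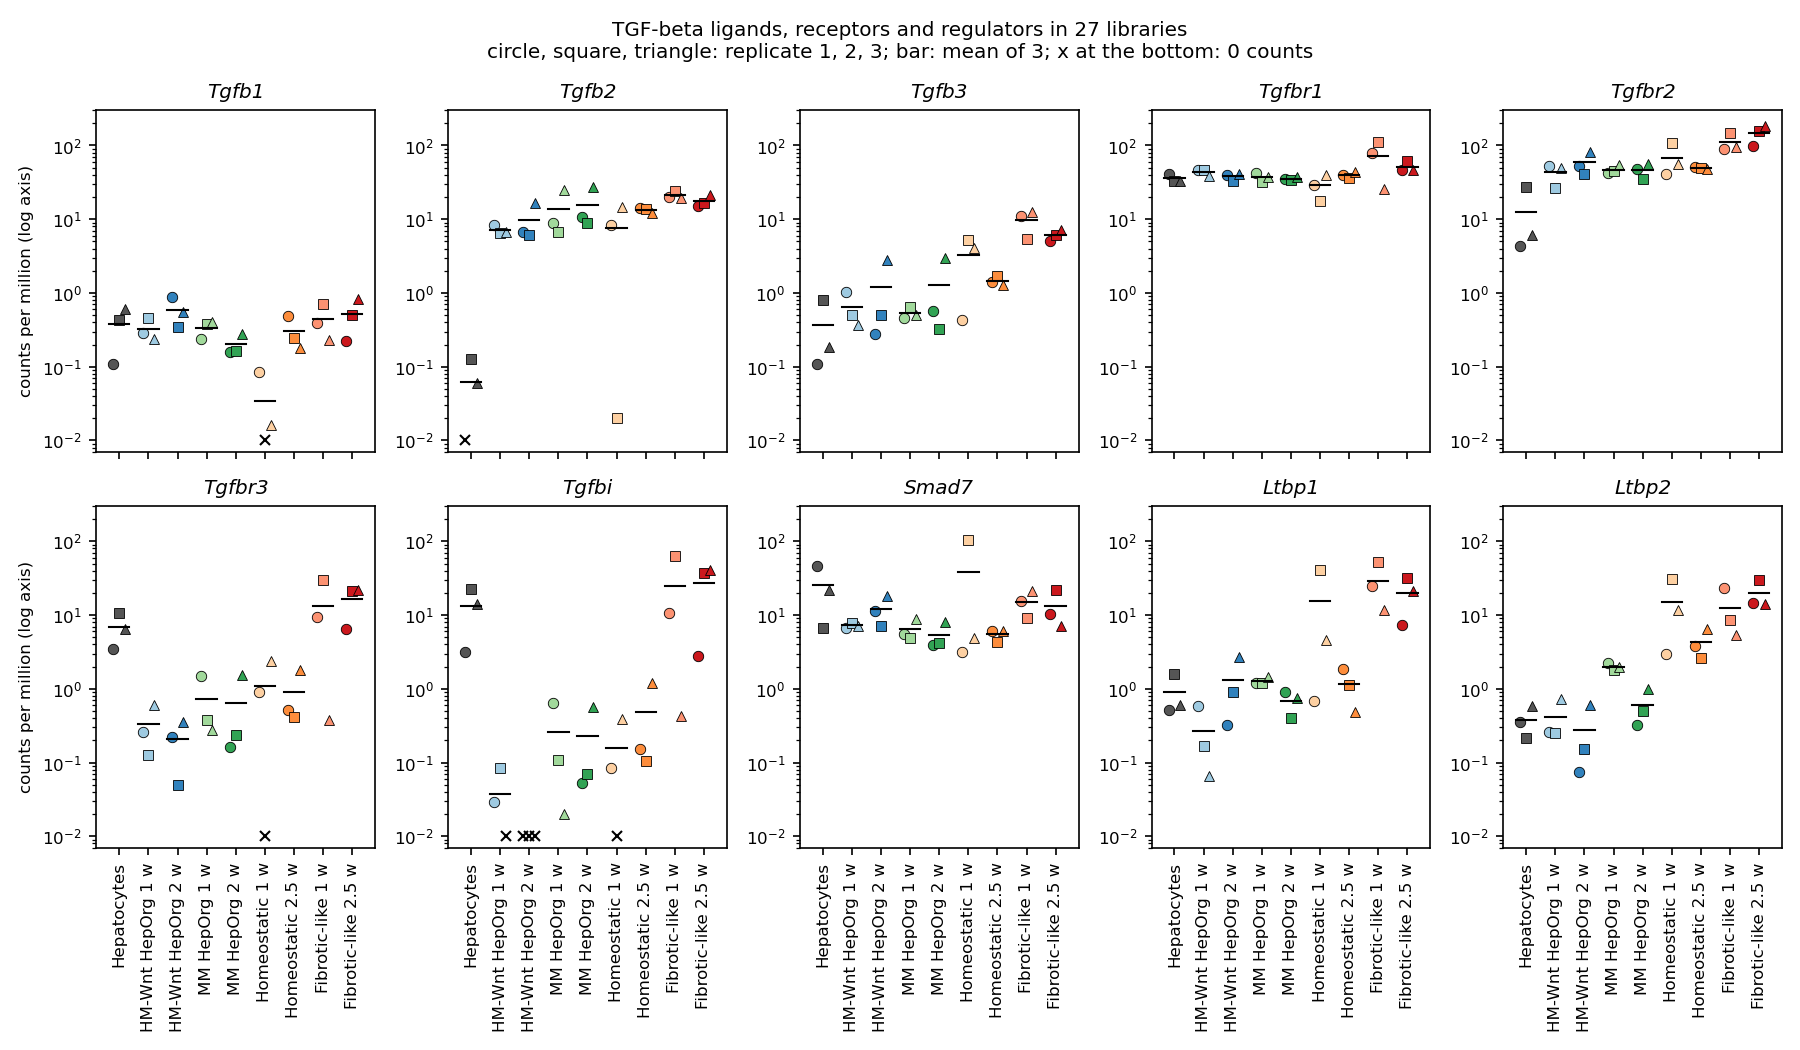
Each panel plots 1 gene in CPM on a log axis over the 9 groups; circle, square and triangle are replicates 1, 2 and 3, bars are group means and crosses at the bottom are libraries with 0 counts. Tgfb2 is absent or nearly absent in hepatocytes and present in all 4 HepOrg groups, whereas Tgfbi and Tgfbr3 fall in HepOrgs and are high again in most fibrotic-like libraries.

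The first comparison asked how culture as HepOrgs differed from freshly isolated hepatocytes. In each of the 4 HepOrg groups Tgfb2 and Tgfbr2 rose and Tgfbr3 and Tgfbi fell, Smad7 fell in 3 groups, and Ltbp2 rose in 1-week MM HepOrgs and did not pass in the other 3 groups. By edgeR's quasi-likelihood test with Benjamini-Hochberg adjustment over all genes, 5 of the 10 genes passed an adjusted p of 0.05 in 1-week HM-Wnt HepOrgs (2 higher and 3 lower, where 49.7% of all genes tested passed), 4 in 2-week HM-Wnt HepOrgs (2 and 2, 51.8% of all), 6 in 1-week MM HepOrgs (3 and 3, 42.8% of all) and 5 in 2-week MM HepOrgs (2 and 3, 39.7% of all). With 10 genes, these counts lie near what the shares of all genes would give. Without hepatocyte replicate 3 the counts were 4, 4, 5 and 4, the calls lost being Tgfbr2 in 3 groups. The median log2 fold change of the 10 genes was -0.07, 0.28, 0.25 and -0.21 in the same order, and that of all genes tested 0.02, 0.03, 0.00 and -0.01. All 4 comparisons share the same 3 hepatocyte libraries.

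Among the ligands, Tgfb2 (chr1:186354985-186438294 in GRCm39) stood out. Hepatocyte libraries held 0, 3 and 2 counts of it. Tgfb2 therefore met the count filter only through the HepOrg libraries, so only a rise could be called. The 1-week HM-Wnt HepOrgs were at 8.44, 6.45 and 6.75 CPM, and the 2-week ones at 6.75, 6.19 and 16.4 CPM. The 1-week MM HepOrgs were at 8.82, 6.63 and 25.2 CPM, and the 2-week ones at 10.7, 8.89 and 27.5 CPM. Every HepOrg library was above every hepatocyte library, with replicate 3 the highest of 3 of the 4 HepOrg groups. Summed counts per effective library size were 135-fold higher in 1-week HM-Wnt HepOrgs (95% counting interval 57.5 to 417), 178-fold at 2 weeks (76.1 to 550), 264-fold in 1-week MM HepOrgs (113 to 814) and 284-fold at 2 weeks (122 to 876). These intervals cover counting error only. The fitted log2 fold changes were 6.04 ± 0.79 (SE), 6.49 ± 0.80, 6.95 ± 0.81 and 7.17 ± 0.81, with edgeR adjusted p = 4.5e-05, 2.32e-05, 2.22e-05 and 1.99e-05. Without hepatocyte replicate 3 they were 6.09, 6.52, 7.01 and 7.24. On the log2(TPM + 1) scale, which compresses low genes, the 1-week HM-Wnt difference was 0.64 with a limma adjusted p of 0.111.

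Tgfb1 and Tgfb3 did not pass the test in any HepOrg group. Tgfb1, the ligand best known in fibrosis, was at 0.109, 0.426 and 0.608 CPM in hepatocytes (4, 10 and 20 counts) and its HepOrg libraries lay between 0.161 and 0.872 CPM, so the groups overlapped. Tgfb3 was at 0.109, 0.81 and 0.182 CPM in hepatocytes and between 0.274 and 2.94 CPM in HepOrgs, with log2 fold changes of 0.71, 1.60, 0.49 and 1.66 and SE of 0.92 to 0.96. Tgfb3 overlaps Ttll5 on the opposite strand over 5912 bases, and the counting did not use strand, so reads in the shared stretch cannot be assigned to either gene.

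The signalling receptors split. Tgfbr1, the type I kinase and the target of A83-01, was at 41.3, 33.0 and 33.5 CPM in hepatocytes and between 32.0 and 46.7 CPM in the 12 HepOrg libraries. Its log2 fold changes of 0.25, 0.06, 0.03 and -0.03 (SE 0.15 each) had adjusted p between 0.176 and 0.889. On the TPM scale, where the median of all genes was raised by 0.40, 0.68, 0.47 and 0.40 in the 4 comparisons, the Tgfbr1 differences were 0.60, 0.69, 0.50 and 0.37, the first 3 past the threshold (limma adjusted p = 0.0087, 0.0028 and 0.0246), so each was close to the shift of all genes on that scale. Tgfbr2 (chr9:115913361-116004800), the type II receptor, was at 4.29, 27.7 and 6.05 CPM in hepatocytes. It was at 53.1, 26.7 and 49.5 CPM in 1-week HM-Wnt HepOrgs, where 1 library fell below the highest hepatocyte value. It was at 53.2, 41.4 and 82.4 CPM in 2-week HM-Wnt, 42.0, 44.5 and 54.3 CPM in 1-week MM and 48.5, 35.4 and 56.4 CPM in 2-week MM HepOrgs, all above every hepatocyte library. The log2 fold changes were 1.72 ± 0.56, 2.19 ± 0.57, 1.85 ± 0.56 and 1.85 ± 0.56 (edgeR adjusted p = 0.0211, 0.00581, 0.0175 and 0.0184). Hepatocyte replicate 2 carried much of the spread and had 280 CPM of endothelial and 427 CPM of immune markers, against 66.1 and 43.5 CPM in replicate 1. Replicate 3, with Tgfbr2 at 6.05 CPM, had 235 CPM of endothelial and 154 CPM of immune markers. The part of these cells in the Tgfbr2 result was not tested. Without hepatocyte replicate 3 the Tgfbr2 differences were 1.40 (adjusted p = 0.0753), 1.85 (0.0259), 1.54 (0.0639) and 1.54 (0.0657), so only the 2-week HM-Wnt call stood. The 1-week HM-Wnt call was also lost without hepatocyte replicate 1 (1.32, 0.058), HM-Wnt replicate 1 (1.56, 0.0559) or HM-Wnt replicate 3 (1.62, 0.052), and over its 12 alternatives the adjusted p ran from 4.99e-05 to 0.0753.

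The co-receptor moved the other way. Tgfbr3 (chr5:107249402-107437623) was at 3.50, 10.6 and 6.44 CPM in hepatocytes. In HM-Wnt HepOrgs it was at 0.261, 0.125 and 0.605 CPM at 1 week and 0.224, 0.0501 and 0.358 CPM at 2 weeks, and in MM HepOrgs at 1.51, 0.379 and 0.280 CPM and 0.161, 0.235 and 1.54 CPM. No HepOrg library reached the lowest hepatocyte library. The log2 fold changes were -4.17 ± 0.97, -4.74 ± 1.00, -3.17 ± 0.93 and -3.35 ± 0.94 (edgeR adjusted p = 0.00316, 0.00146, 0.0143 and 0.012). Endothelial markers fell with it. Their sum was 66.1 to 280 CPM in hepatocytes and at most 13.4 CPM in HepOrgs, and 8 of 8 passed the test as lower in all 4 comparisons. Of these 8, 5 had too few counts to be tested in HepOrgs alone. They entered the test through the hepatocyte libraries, so only a fall could be called. Tgfbr3 is expressed by endothelial and mesenchymal cells as well as hepatocytes, and the part of the endothelial cells in the result was not tested. The 1-week MM call was lost without MM replicate 2 (-2.88, 0.0556) or replicate 3 (-2.78, 0.056), and without hepatocyte replicate 3 the values were -4.20, -4.79, -3.20 and -3.36, all still past the threshold.

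Tgfbi (chr13:56757336-56787375), a secreted matrix protein named for its induction by TGF-β, had the largest fall of the 10 genes. Hepatocytes held 3.18, 22.6 and 14.3 CPM (117, 530 and 470 counts). The 1-week HM-Wnt HepOrgs held 1, 2 and 0 counts and the 2-week ones 0, 0 and 0. The 1-week MM HepOrgs held 33, 4 and 1 counts and the 2-week ones 2, 3 and 20. All 12 HepOrg libraries lay below the lowest hepatocyte library. Summed counts were 419-fold lower in 1-week HM-Wnt HepOrgs (95% counting interval 143 to 2033) and at least 465-fold lower at 2 weeks, taking a floor of 3 counts over the group. In MM HepOrgs the log2 fold changes were -5.44 ± 1.17 and -5.64 ± 1.19 (edgeR adjusted p = 0.00331 and 0.00312). Without hepatocyte replicate 3 all 4 Tgfbi calls stood (-7.29, -7.98, -5.38 and -5.56). With HepOrgs alone Tgfbi had too few counts to be tested. It entered these tests through the hepatocyte libraries, so only a fall could be called. Immune cells are another source of Tgfbi in liver, and the 8 immune markers summed to 43.5, 427 and 154 CPM in hepatocytes, which ranked the 3 libraries as Tgfbi did. The endothelial sums (66.1, 280 and 235 CPM) and mesenchyme sums (24.4, 155 and 107 CPM) ranked them in the same way. The immune sum did not fall with Tgfbi, at 62.1 to 189.8 CPM in HM-Wnt and 173 to 499.7 CPM in MM HepOrgs. Of the 8, 6 passed as lower in both HM-Wnt groups and in 1-week MM and 3 in 2-week MM, among them the liver macrophage markers Cd5l and Clec4f, which were at 0 in all HM-Wnt libraries. The other 2, Cd14 and Cd68, passed as higher in all 4 comparisons, and Cd14 went from at most 4.18 CPM in hepatocytes to between 42.1 and 492 CPM in HepOrgs. With HepOrgs alone 5 of the 8 immune markers had too few counts to be tested, so they too entered through the hepatocyte libraries. The part of immune, endothelial or mesenchymal cells in the Tgfbi result was not tested.

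Smad7, the inhibitory SMAD, was at 47.0, 6.78 and 22.0 CPM in hepatocytes, with replicate 1 far above the others. HepOrgs were tighter, at 6.61, 7.91 and 7.16 CPM in 1-week HM-Wnt, 11.2, 7.07 and 18.2 CPM in 2-week HM-Wnt, 5.55, 4.87 and 8.88 CPM in 1-week MM and 3.99, 4.13 and 7.95 CPM in 2-week MM, and only the 2-week HM-Wnt libraries were all above hepatocyte replicate 2. The log2 fold changes were -1.82 ± 0.54, -1.06 ± 0.53, -1.98 ± 0.55 and -2.24 ± 0.55 (edgeR adjusted p = 0.0135, 0.112, 0.0106 and 0.00586). Without hepatocyte replicate 1 the 1-week differences were -1.02 (adjusted p = 0.104) in HM-Wnt and -1.17 (0.0759) in MM. Without hepatocyte replicate 2, the lowest hepatocyte library, the 2-week HM-Wnt difference became -1.50 and passed (0.0108). Without hepatocyte replicate 3 the 3 calls stood (-1.89, -2.04 and -2.29). On the TPM scale none passed (-0.72, -0.77 and -0.99, limma adjusted p = 0.174, 0.148 and 0.0764 for the groups called before).

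The latent binding proteins were scarce in hepatocytes and in HepOrgs alike. Ltbp1, which covalently binds the latent ligand, was at 0.516, 1.58 and 0.608 CPM in hepatocytes and passed the test in no group with all libraries. Without HM-Wnt replicate 1, the highest of its group, its difference in 1-week HM-Wnt HepOrgs (-1.59 ± 0.76, adjusted p = 0.0988) became -2.56 (0.0218). Ltbp2, a fibrillin-associated matrix protein that unlike Ltbp1 does not bind latent TGF-β, was at 0.353, 0.213 and 0.578 CPM in hepatocytes and at 2.24, 1.81 and 1.96 CPM in 1-week MM HepOrgs, with no overlap. That difference was 2.21 ± 0.69 on the log2 scale (edgeR adjusted p = 0.0198). It missed the threshold without hepatocyte replicate 1 (2.17, 0.0554) or replicate 2 (1.98, 0.0599), and held without hepatocyte replicate 3 (2.60, 0.0268). Ltbp2 differences in the other HepOrg groups were 0.09, -0.43 and 0.57.

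**Figure D2:**
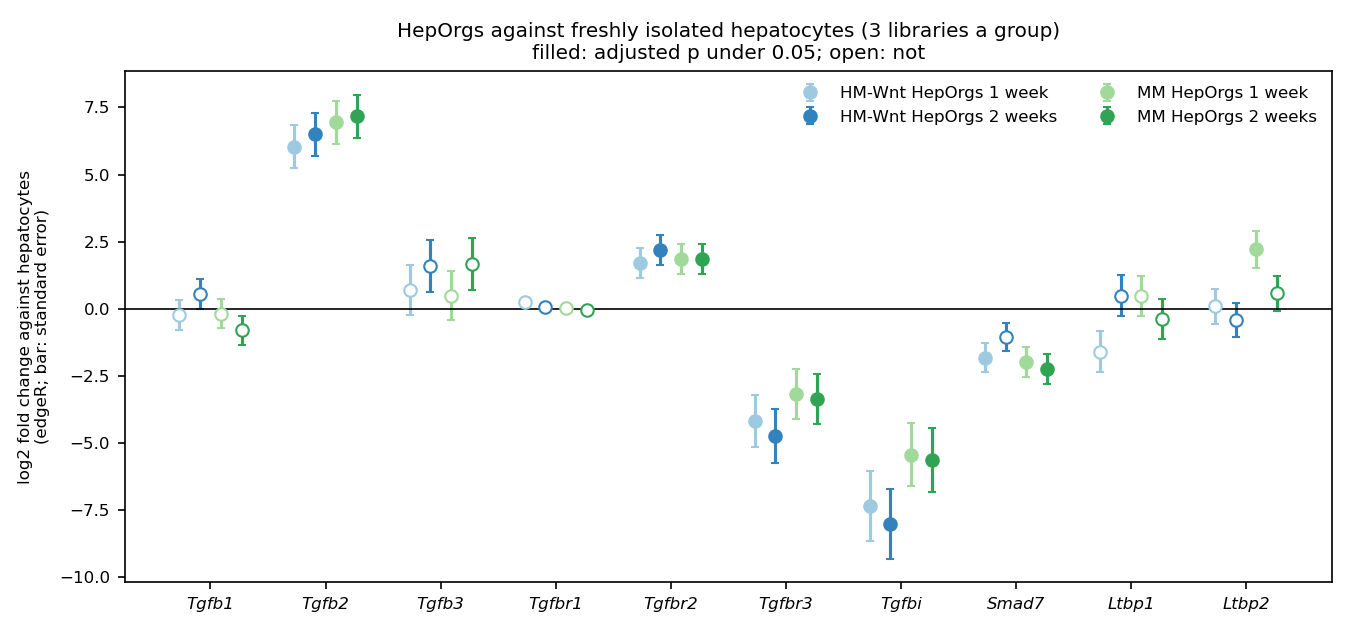
Points are log2 fold changes of the 10 genes against hepatocytes (y axis, edgeR) with their standard errors, in 4 HepOrg groups of 3 libraries; filled points have an adjusted p under 0.05. Tgfb2 lies between 6.04 and 7.17 and Tgfbi between -8.02 and -5.44 in all 4 groups, while Tgfbr1 lies within 0.25 of 0.

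The second comparison asked what followed when HepOrgs were moved from HM-Wnt, with its type I receptor inhibitor, to MM without it. A83-01 and the other withdrawn factors cannot be told apart. Over both times, 1 of the 9 genes that could be tested passed, Ltbp2, which was higher in MM (21.5% of all genes passed). At 1 week 0 of 9 passed (2.98% of all genes) and at 2 weeks 0 of 9 (11.5% of all genes). At an unadjusted p under 0.05 there were 2 genes at each time, DESeq2 called 2 at each time, and limma on the TPM scale called 0. With 9 genes, the edgeR counts past the adjusted threshold lie near what the shares of all genes would give. The shares of all genes for the unadjusted, DESeq2 and limma counts are not given here, so those counts are not read further. Tgfbi had too few counts for the main test. The median log2 fold change of the 9 genes over both times was -0.08, and of all genes -0.02.

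Ltbp2 counts in HM-Wnt HepOrgs were 9, 6 and 34 at 1 week (0.261, 0.250 and 0.735 CPM) and 3, 6 and 22 at 2 weeks (0.0747, 0.150 and 0.606 CPM). In MM HepOrgs they were 114, 67 and 98 at 1 week (2.24, 1.81 and 1.96 CPM) and 12, 21 and 36 at 2 weeks (0.321, 0.493 and 1.01 CPM). The groups were separate at 1 week and overlapped at 2 weeks through HM-Wnt replicate 3. With all 12 libraries Ltbp2 met the count filter only with the help of MM libraries. Only a rise could then be called, so the passes below, with or without the block, add no support for the direction. The log2 fold change over both times was 1.57 ± 0.48 (edgeR adjusted p = 0.037), with 2.12 ± 0.68 at 1 week (0.105) and 1.02 ± 0.65 at 2 weeks (0.342). HepOrgs with the same replicate number deviated together, and with the replicate number as a block the difference was 1.75 over both times (adjusted p = 0.00587) and 2.37 at 1 week (0.0237). The call was fragile in the fit without the block. Over 17 alternatives the adjusted p ran from 0.00574 to 0.192 and 8 passed. It was lost on leaving out 1-week MM replicate 1 (1.52, 0.0815) or 2 (1.60, 0.0663), 2-week MM replicate 2 (1.62, 0.0585) or 3 (1.31, 0.073), 1-week HM-Wnt replicate 1 (1.45, 0.0762) or 2 (1.45, 0.0709), or 2-week HM-Wnt replicate 1 (1.37, 0.0719) or 2 (1.44, 0.078). Mesenchyme markers were also higher in some MM libraries, with sums of 249, 78.9 and 107 CPM in 1-week MM against 28.3, 29.8 and 79.1 CPM in 1-week HM-Wnt, and 1 of the 9 tested, Lum, passed over both times (3.88). Their part in the Ltbp2 result was not tested.

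Smad7, a known target of receptor signalling, had a lower fitted level after the inhibitor was withdrawn. Its values given above were 6.61 to 7.91 CPM in HM-Wnt and 4.87 to 8.88 CPM in MM at 1 week, and 7.07 to 18.2 CPM against 3.99 to 7.95 CPM at 2 weeks, so the groups overlapped at both times. The log2 fold changes were -0.17 ± 0.37 at 1 week (edgeR adjusted p = 0.82), -1.17 ± 0.37 at 2 weeks (0.0626) and -0.67 ± 0.26 over both times (0.0873). With the replicate block the fall passed the test at 2 weeks (-1.15, 0.0111) and over both times (-0.70, 0.0158). Across alternatives the 2-week adjusted p ran from 0.0111 to 0.867 and passed in 4 of 12, among them without MM replicate 3 (-1.56, 0.027) and without HM-Wnt replicate 2 (-1.45, 0.0351), and that over both times ran from 0.0158 to 0.787 and passed in 4 of 18, among them without 1-week MM replicate 3 (-0.81, 0.0474), 2-week MM replicate 3 (-0.86, 0.0319) or 2-week HM-Wnt replicate 2 (-0.81, 0.0395).

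Tgfbi, in contrast, had more counts in MM. It had 38 counts in all over the 1-week MM libraries and 3 in HM-Wnt, a ratio of 9.62 (95% counting interval 3.05 to 48.7), and 25 against 0 at 2 weeks, at least 8.38-fold higher on a floor of 3 counts over the group. The groups overlapped at 1 week, where 33 of the 38 counts were in replicate 1, the library with the highest mesenchyme sum, and were separate at 2 weeks, where 20 of the 25 were in replicate 3, with the highest mesenchyme sum of that group (207 CPM). DESeq2, which kept it, called Tgfbi higher at 2 weeks (5.60, adjusted p = 0.0307) and over both times (4.26, 0.00786). The adjusted p over both times ran from 0.00786 to 0.24 and passed in 5 of 13 alternatives (in edgeR without 1-week MM replicate 3 at 2.39, 0.0235, without 2-week MM replicate 1 at 2.38, 0.0496, and without 1-week HM-Wnt replicate 2 at 2.40, 0.0493), and that at 2 weeks ran from 0.0307 to 0.546 and passed in 1 of 8. In the edgeR omissions Tgfbi met the count filter only through the MM libraries with 33 and 20 counts. Only a rise could then be called, so these passes add no support.

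The other ligands and receptors did not pass in either medium comparison. Ltbp1 was at 0.580, 0.167 and 0.0649 CPM in 1-week HM-Wnt and 1.20, 1.19 and 1.46 CPM in 1-week MM, with no overlap, a difference of 2.05 ± 0.77 (edgeR adjusted p = 0.149). At 2 weeks it was at 0.324, 0.902 and 2.67 CPM in HM-Wnt against 0.909, 0.399 and 0.756 CPM in MM, and the difference turned to -0.86 ± 0.74. The test of that change between times gave -2.92 ± 1.06 (edgeR adjusted p = 0.671). For Tgfb1 the 2-week values were 0.872, 0.351 and 0.550 CPM in HM-Wnt and 0.161, 0.164 and 0.280 CPM in MM, with no overlap and a difference of -1.35 ± 0.46 (adjusted p = 0.0786). Tgfb2 differed by 0.79 ± 0.40 over both times (0.178), Tgfbr3 by 1.20 ± 0.64 (0.206), Tgfbr1 by -0.16 ± 0.10 (0.306), Tgfbr2 by -0.10 ± 0.21 (0.768) and Tgfb3 by -0.08 ± 0.59 (0.941).

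**Figure D3:**
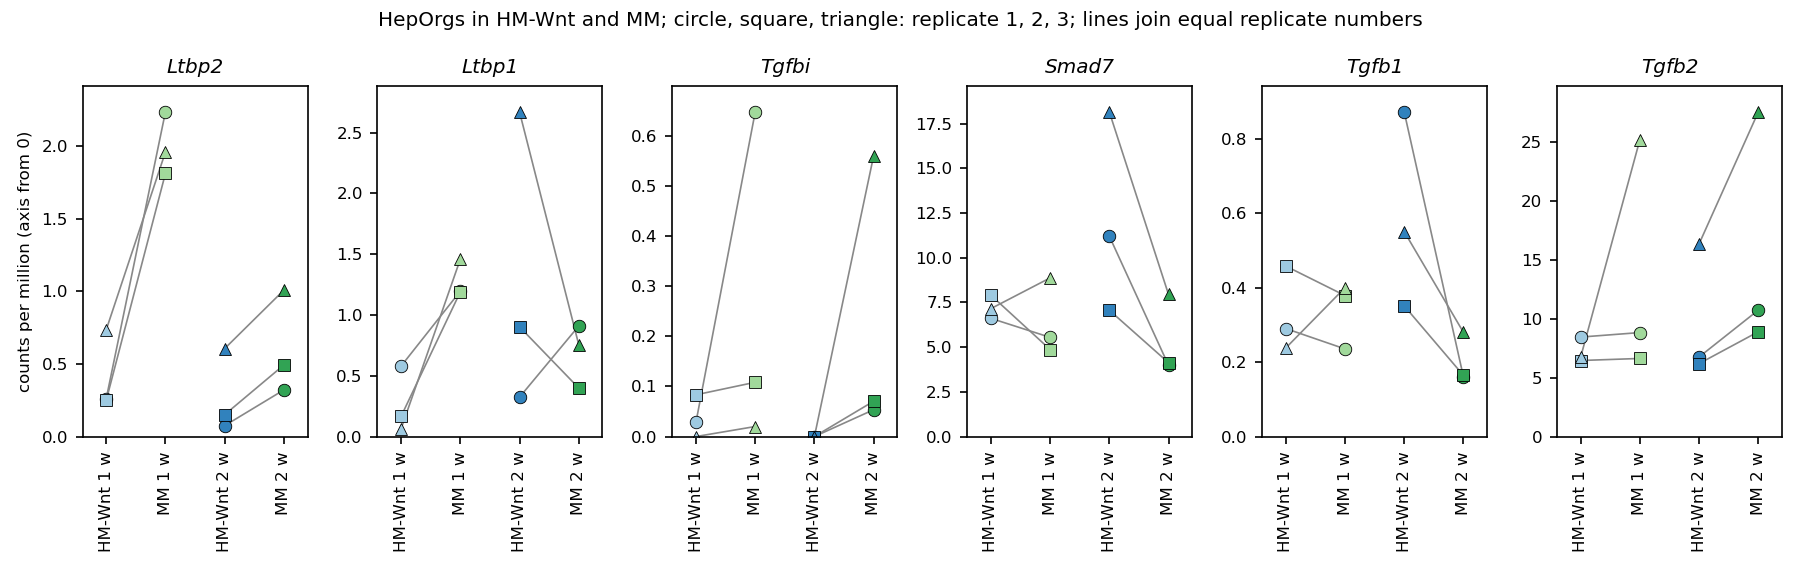
CPM on axes from 0 for 6 genes in the 12 HepOrg libraries; circle, square and triangle are replicates 1, 2 and 3, and lines join libraries of the same number in HM-Wnt and MM at each time. Ltbp2 rises along all 3 lines at 1 week (means 0.415 and 2.00 CPM) and all 3 lines of Smad7 fall at 2 weeks.

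Time in culture moved none of these genes past the test. Between 1 and 2 weeks in HM-Wnt, edgeR called 0 of 9 genes (0% of all genes tested) with 1 at an unadjusted p under 0.05, Ltbp1 (2.09 ± 0.77), and DESeq2 called 0. In MM it also called 0 of 9 (0.0154% of all genes), with 1 at an unadjusted p under 0.05, Ltbp2 (-1.63 ± 0.67), and DESeq2 called 0. For the change of the medium effect from 1 to 2 weeks it called 0 of 9 (0% of all genes), with Ltbp1 alone at an unadjusted p under 0.05, and DESeq2 called 0. Limma on the TPM scale called 0 of these genes in all 3. Over all genes, 1134, 1337 and 951 had an unadjusted p under 0.05 by edgeR, and DESeq2 called 15, 305 and 38.

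The third comparison set fibrotic-like against homeostatic assembloids, which differ in the number of mesenchymal cells at the start. Over both times, 9 of the 10 genes had a higher fitted level in fibrotic-like assembloids by at least 0.84 on the log2 scale, and Smad7 was at 0.01 (-0.012 with RLE factors and -0.0111 in DESeq2). With all 12 libraries edgeR called 0 of 10 genes over both times (0% of all genes tested), with 7 at an unadjusted p under 0.05. This count changed with the library that stood apart, homeostatic 1-week replicate 2, and with the method. Without that library edgeR called 7 of 10 higher (29.7% of all genes called), namely Tgfb2, Tgfb3, Tgfbr2, Tgfbr3, Tgfbi, Smad7 and Ltbp1. DESeq2 on all 12 libraries called 6 of 10 higher (11.3% of all genes called), namely Tgfb1, Tgfb3, Tgfbr2, Tgfbr3, Tgfbi and Ltbp1. Without that library the median of the 10 log2 fold changes was 1.59 and that of all genes 0.12, and with it 1.46 and 0.14. Limma on the TPM scale, where the median of all genes was 0.66, called 5 of 10.

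At single times edgeR called 0 of 10 at 1 week (0% of all genes), with 3 at an unadjusted p under 0.05 (Tgfbi 6.98 ± 2.12, Tgfb1 2.83 ± 0.91 and Tgfbr1 1.33 ± 0.50), and DESeq2 called 2. At 2.5 weeks, where the estimate of the spread was shared with the 1-week libraries, edgeR called 0 of 10 (0% of all genes), with 6 at an unadjusted p under 0.05 (Ltbp1, Ltbp2, Tgfb3, Tgfbi, Tgfbr2 and Tgfbr3), and DESeq2 called 3. Without fibrotic-like 2.5-week replicate 2 edgeR also called 0 of 10, with 3 at an unadjusted p under 0.05. Over all genes, 2012 at 1 week, 944 at 2.5 weeks and 2678 over both times had an unadjusted p under 0.05 by edgeR, and DESeq2 called 791, 288 and 1724. Every fibrotic-like library was above every homeostatic library in 4 of 10 genes at 1 week (17.1% of all genes compared), in 9 of 10 at 2.5 weeks (20.8% of all), the exception being Tgfb1, and in 1 of 10, Tgfb2, over both times (5.28% of all). In none of the 3 was every fibrotic-like library lower.

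Of the ligands, Tgfb3 and Tgfb1 had larger fitted differences than Tgfb2. Tgfb3 (chr12:86102756-86126301) was at 0.425, 5.28 and 4.13 CPM in homeostatic and 11.1, 5.46 and 12.7 CPM in fibrotic-like assembloids at 1 week, and at 1.40, 1.72 and 1.30 CPM against 5.0, 6.11 and 7.12 CPM at 2.5 weeks. The groups did not overlap at either time, and the 2.5-week homeostatic libraries were the tightest. The log2 fold change over both times was 1.81 ± 0.57 (edgeR adjusted p = 0.136), and 2.03 (0.0191) without homeostatic 1-week replicate 2. Tgfb2 was at 8.42, 0.0205 and 14.6 CPM in homeostatic and 19.8, 24.0 and 19.4 CPM in fibrotic-like assembloids at 1 week, and at 14.0, 13.8 and 12.1 CPM against 14.9, 16.8 and 21.5 CPM at 2.5 weeks. The 2 sets were separate at both times, by a small margin at 2.5 weeks. Homeostatic 1-week replicate 2 held nearly no Tgfb2, and the log2 fold change was 0.92 ± 0.85 with it (0.647) and 0.63 (0.0294) without it. Tgfb1 was at 3, 0 and 1 counts in homeostatic 1-week libraries against 0.395, 0.711 and 0.228 CPM in fibrotic-like ones, a ratio of summed counts of 15.6 (95% counting interval 5.91 to 58.4), and at 0.491, 0.248 and 0.181 CPM against 0.225, 0.502 and 0.837 CPM at 2.5 weeks, where the groups overlapped. Over both times it differed by 1.76 ± 0.62 (0.165), by 1.60 (0.0595) without the doubted library, and by 2.32 in DESeq2 (0.0146). With all 12 libraries Tgfb1, too, met the edgeR count filter only with the help of fibrotic-like libraries, so only a rise could be called in that fit. The adjusted p over the alternatives ran from 0.00478 to 0.297 for Tgfb3, from 0.027 to 0.82 for Tgfb2 and from 0.0146 to 0.344 for Tgfb1.

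Of the receptors, Tgfbr2 and Tgfbr3 differed most. Tgfbr2 was at 40.5, 107 and 56.6 CPM in homeostatic and 88.3, 150 and 94.1 CPM in fibrotic-like assembloids at 1 week, overlapping only through homeostatic replicate 2. At 2.5 weeks it was at 50.7, 49.4 and 47.6 CPM against 99.03, 157 and 182 CPM, so every fibrotic-like library stood well above the homeostatic ones. The log2 fold change over both times was 1.16 ± 0.27 (edgeR adjusted p = 0.0875) and 1.37 (0.00825) without homeostatic 1-week replicate 2. Tgfbr3 was at 0.907, 0 and 2.37 CPM against 9.33, 29.9 and 0.375 CPM at 1 week, where fibrotic-like replicate 3 fell among the homeostatic libraries. At 2.5 weeks it was at 0.510, 0.414 and 1.81 CPM against 6.53, 21.1 and 21.9 CPM. Its log2 fold change was 3.83 ± 1.23 (0.139) and 3.55 (0.0254) without the doubted homeostatic library. Tgfbr1 was at 28.9, 17.7 and 40.1 CPM against 79.4, 112 and 25.6 CPM at 1 week and at 39.8, 36.5 and 43.8 CPM against 46.0, 62.1 and 45.8 CPM at 2.5 weeks, and differed by 0.84 ± 0.35 (0.23) and by 0.70 (0.116) without that library. The adjusted p over the alternatives ran from 0.0025 to 0.246 for Tgfbr2, from 0.00383 to 0.292 for Tgfbr3 and from 0.0094 to 0.456 for Tgfbr1.

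The matrix and feedback genes varied widely between replicates. Tgfbi was at 3, 0 and 24 counts (at most 0.395 CPM) in homeostatic and at 10.5, 63.7 and 0.429 CPM in fibrotic-like 1-week assembloids, and at 0.151, 0.103 and 1.21 CPM against 2.74, 37.2 and 40.8 CPM at 2.5 weeks. The groups were separate at both times, although fibrotic-like 1-week replicate 3 barely cleared the homeostatic libraries of its time. The log2 fold change was 6.33 ± 1.46 (edgeR adjusted p = 0.0875) and 6.09 (0.0172) without homeostatic 1-week replicate 2, and over the alternatives the adjusted p ran from 1.21e-06, in DESeq2, to 0.242. With all 12 libraries Tgfbi met the edgeR count filter only with the help of fibrotic-like libraries, so only a rise could be called in that fit. Ltbp1 (chr17:75312519-75699507) was at 0.680, 40.9 and 4.66 CPM against 24.9, 51.8 and 11.7 CPM at 1 week and at 1.83, 1.14 and 0.484 CPM against 7.33, 31.8 and 21.3 CPM at 2.5 weeks. Only homeostatic 1-week replicate 2 reached the fibrotic-like range. Ltbp1 differed by 2.55 ± 0.86 (0.155), by 3.74 (0.0105) without that library, with a range of 0.00341 to 0.326. Ltbp2 was at 2.95, 30.6 and 11.7 CPM against 23.6, 8.50 and 5.39 CPM at 1 week, which overlapped, and at 3.85, 2.63 and 6.56 CPM against 14.7, 29.9 and 14.3 CPM at 2.5 weeks, which did not. Its differences of 0.97 ± 0.59 (0.427) and 1.45 (0.0546) did not pass, with a range of 0.0131 to 0.748. Smad7 was at 3.15, 106 and 4.85 CPM against 15.5, 9.01 and 21.2 CPM at 1 week and at 6.15, 4.28 and 6.04 CPM against 10.3, 22.1 and 7.08 CPM at 2.5 weeks. The single value of 106 CPM in homeostatic 1-week replicate 2 set the fitted difference, which was 0.01 ± 0.66 with it (0.995; -0.012 with RLE factors and -0.0111 in DESeq2) and 1.57 without it (0.0141), with a range of 0.00769 to 1.00.

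**Figure D4:**
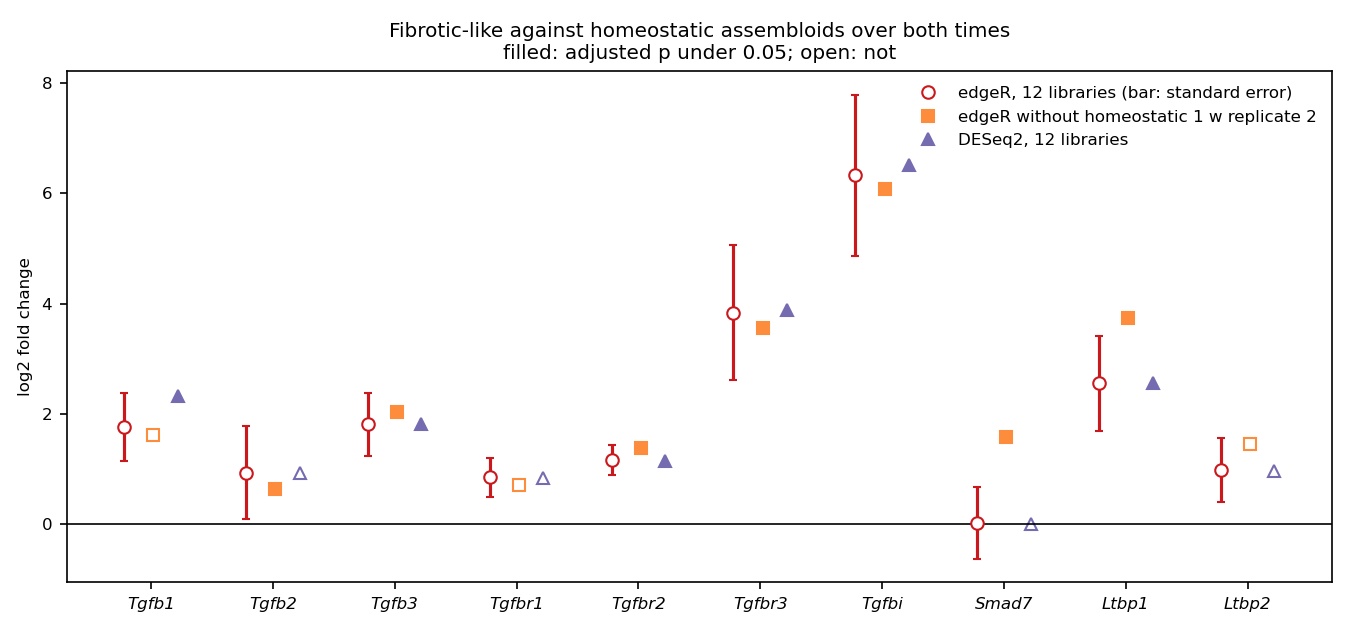
Log2 fold changes over both times (y axis) of the 10 genes under 3 analyses, with standard errors for the edgeR test on 12 libraries; filled points have an adjusted p under 0.05. All points of the first analysis are open, 7 of 10 are filled without homeostatic 1-week replicate 2, and 6 of 10 are filled in DESeq2.

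The mesenchyme markers moved with these genes. Their sum was 136, 2321 and 381 CPM in homeostatic 1-week libraries, 196 to 275 CPM in homeostatic 2.5-week libraries, 2379, 6185 and 703 CPM in fibrotic-like 1-week libraries and 1401, 4615 and 5230 CPM in fibrotic-like 2.5-week libraries. Ly6a alone gave 1280 CPM of the sum in homeostatic 1-week replicate 2 and 419 CPM in fibrotic-like 1-week replicate 3. In that homeostatic library Pdgfrb, Col1a1, Col1a2, Col3a1 and Lum were also the highest of the homeostatic libraries. Pdgfra (1.04 CPM), Dcn, Cd34 and Thy1 were not, so the sum is an uneven measure of mesenchyme there. Without homeostatic 1-week replicate 2, 9 of the 10 markers passed as higher (Pdgfra 4.89), and with it 0 passed by edgeR, with 9 at an unadjusted p under 0.05. Some values followed this sum within a group and others did not. Homeostatic 1-week replicate 2, with the highest mesenchyme sum of the homeostatic libraries, had the highest homeostatic Tgfbr2, Ltbp1 and Ltbp2, and fibrotic-like 1-week replicate 3, with the lowest sum of the fibrotic-like libraries, had the lowest fibrotic-like Tgfbr3 and Tgfbi. The same fibrotic-like library had the highest Tgfb3 of all 27 libraries (12.7 CPM) and the highest Smad7 of its group (21.2 CPM), so these did not follow its mesenchyme sum. It also had the most Krt19 of its group (932 CPM). So did homeostatic 1-week replicate 2 (1521 CPM, Smad7 106 CPM) and fibrotic-like 2.5-week replicate 2 (1632 CPM, Smad7 22.1 CPM), each with the highest Smad7 of its group. Tgfb3 at 2.5 weeks was highest in fibrotic-like replicate 3 instead. The part of cholangiocytes was not tested. Homeostatic 1-week replicate 2 also had the lowest homeostatic Tgfb2 and Tgfbr1 and no count of Tgfb1, Tgfbr3 or Tgfbi. More mesenchymal cells, a different share of cholangiocytes and more transcript per cell cannot be told apart in these libraries. The hepatocyte markers went the other way in part, with 2 of 6 lower without that library, and cholangiocyte markers were higher in 5 of 6.

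**Figure D5:**
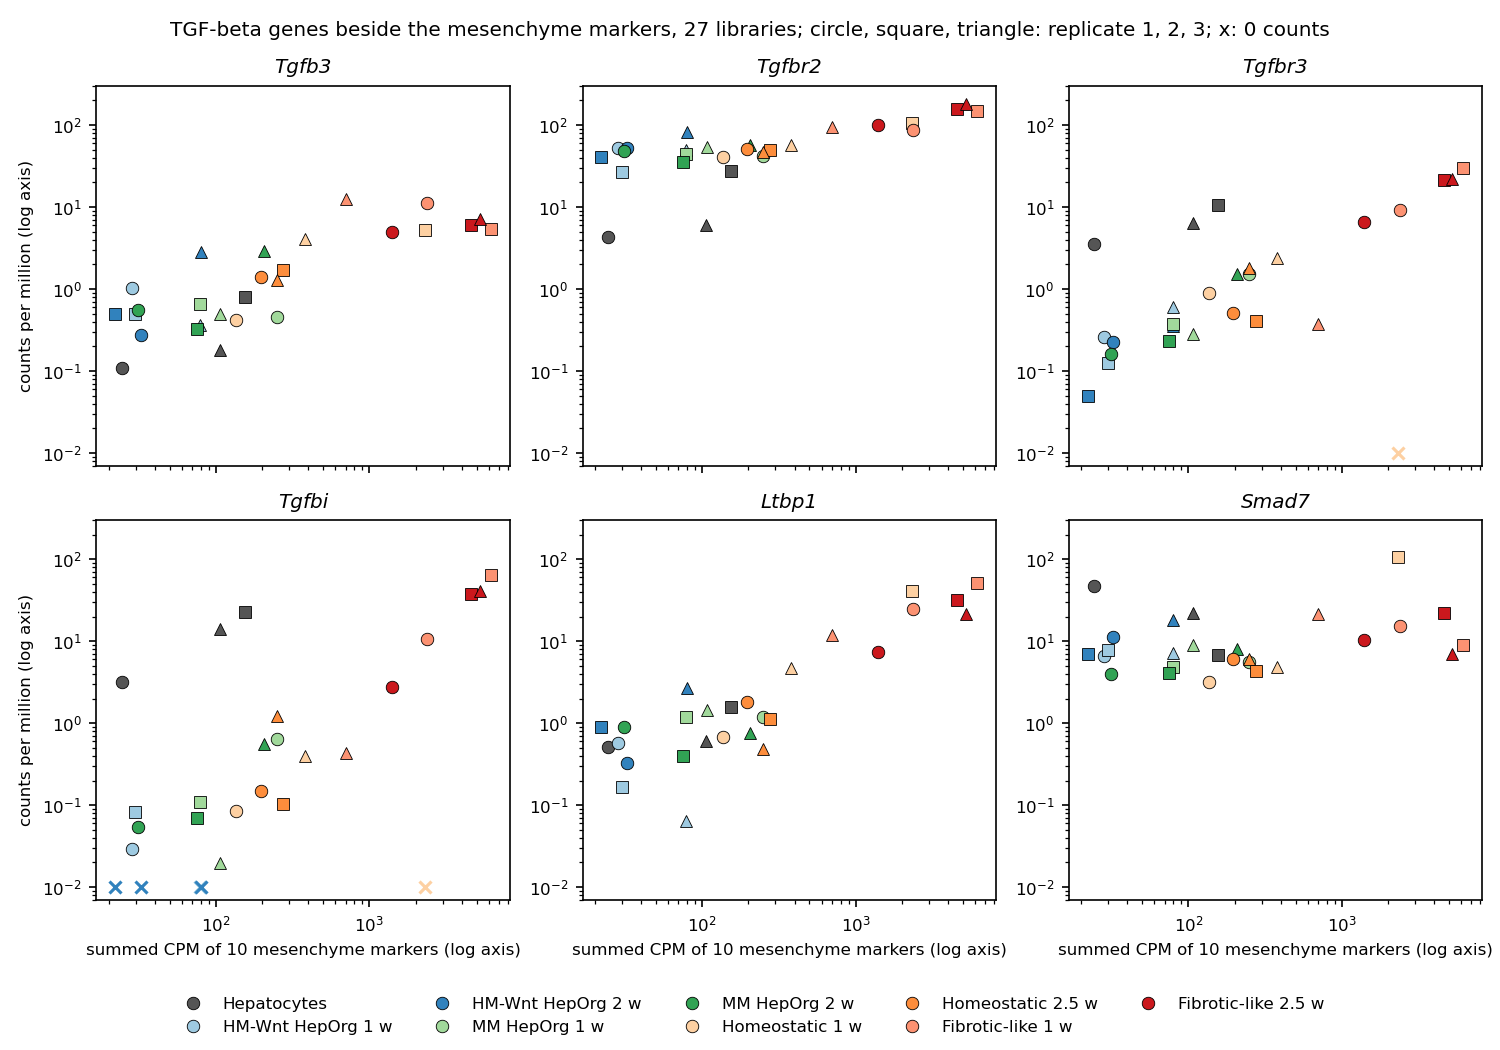
Each panel plots 1 gene (y axis, CPM, log axis) against the summed CPM of 10 mesenchyme markers (x axis, log axis) in 27 libraries; symbols are replicates 1, 2 and 3, colours are groups and crosses mark 0 counts. Fibrotic-like libraries lie at the right, between 703 and 6185 CPM of marker sum, together with homeostatic 1-week replicate 2 at 2321 CPM. Ly6a alone gave 1280 CPM of the sum in that homeostatic library and 419 CPM in the fibrotic-like library at 703 CPM.

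Within one kind of assembloid, time moved no gene past the test. From 1 to 2.5 weeks in homeostatic assembloids edgeR called 0 of 10 (0% of all genes), with 3 at an unadjusted p under 0.05 (Ltbp1 -3.59 ± 1.27, Smad7 -2.66 ± 1.14 and Tgfb1 2.36 ± 0.87, adjusted p = 0.759 each), and DESeq2 called 0. The first 2 of these turn on the values of 40.9 and 106 CPM in homeostatic 1-week replicate 2. In fibrotic-like assembloids edgeR called 0 of 10 (0% of all genes), with 0 at an unadjusted p under 0.05, and DESeq2 called 0. For the change of the fibrotic-like difference from 1 to 2.5 weeks edgeR called 0 of 10 (0% of all genes), with 0 at an unadjusted p under 0.05, and DESeq2 called 0. Limma on the TPM scale called 0 in all 3. Over all genes, 936, 122 and 278 had an unadjusted p under 0.05 by edgeR, and DESeq2 called 17, 0 and 0.

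The fourth comparison set assembloids against HepOrgs kept alone in the same medium for the same 7 days. Making assembloids also took an aggregation step and re-seeding in Matrigel, and these cannot be told apart from the added cells. Fibrotic-like assembloids had higher fitted levels than MM HepOrgs in all 10 genes, and edgeR called 0 of them (0% of all genes tested), with 5 at an unadjusted p under 0.05 (Tgfb3 4.11 ± 1.07, Ltbp1 4.49 ± 1.39, Ltbp2 2.62 ± 0.98, Tgfbi 6.41 ± 2.27 and Tgfbr2 1.24 ± 0.42, adjusted p between 0.372 and 0.402). DESeq2 called 3, namely Tgfb3 (4.13, adjusted p = 0.000616), Tgfbi (6.56, 0.00786) and Ltbp1 (4.49, 0.00808). With all libraries of this fit Tgfbi met the edgeR count filter only with the help of fibrotic-like libraries, so edgeR could call only a rise. With homeostatic 1-week replicate 2 and fibrotic-like 1-week replicate 3 both left out, 7 passed (22.2% of all genes called), namely Tgfb3 (3.85), Tgfbr1 (1.33), Tgfbr2 (1.32), Tgfbr3 (4.66), Tgfbi (6.93), Ltbp1 (4.84) and Ltbp2 (2.95). Tgfb3, Tgfbr2, Smad7, Ltbp1 and Ltbp2 were higher in every fibrotic-like library than in every MM HepOrg library, which is 5 of 10 genes where 26.6% of all genes compared were higher in this way. The MM HepOrgs of this comparison held 0.451, 0.649 and 0.500 CPM of Tgfb3, against 5.46 CPM in the lowest fibrotic-like library. Homeostatic assembloids differed from MM HepOrgs in 0 of 10 genes by edgeR (0% of all genes), with 4 at an unadjusted p under 0.05 (Ltbp1 3.52 ± 1.33, Ltbp2 2.86 ± 0.99, Tgfb3 2.52 ± 0.99 and Tgfb1 -2.48 ± 0.87, adjusted p = 0.684 each), and DESeq2 called 0. Both comparisons share the MM HepOrg libraries. Limma on the TPM scale called 1 of 10 against fibrotic-like and 0 against homeostatic assembloids, and over all genes 1512 and 976 had an unadjusted p under 0.05 by edgeR, with 708 and 251 called by DESeq2.

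Around the 10 genes, 78 other genes of the pathway and its relatives were counted in 5 lists. The list counts against hepatocytes stand beside 49.7, 51.8, 42.8 and 39.7% of all genes tested that passed in the 4 groups, in the order used above. Among 13 tested genes of latency and activation, 5 rose and 6 fell in 1-week HM-Wnt HepOrgs against hepatocytes, 5 and 4 at 2 weeks, and 4 and 3, then 6 and 3, in MM HepOrgs. Those that rose were led by Ltbp3, a latent TGF-β binding protein (log2 fold change 6.67 to 7.71 in the 4 groups), Thbs1, the activator thrombospondin 1 (4.75 to 7.45), and Itgb6, a subunit of the activating integrin of epithelia (4.31 to 5.21). Lrrc32, which anchors latent TGF-β at the surface of regulatory T cells and endothelium, fell in 3 groups (-5.17, -5.70 and -4.25). Among 11 other receptors and receptor-level regulators 2 rose and 4 fell, 2 and 5, 1 and 4, and 2 and 6 passed in the same order. The endothelial co-receptor Eng fell by 5.62, 6.23, 3.47 and 3.95 on the log2 scale, together with the endothelial markers, of which it is one, and Fkbp1a, which holds the type I receptor inactive, rose by 1.29 to 1.58.

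Targets and nuclear partners changed unevenly against hepatocytes. Of 15 SMADs and their regulators 5 rose and 1 fell, 3 and 2, 2 and 1, and 2 and 1, with Tgif1, a SMAD co-repressor, higher by 1.85 to 2.00 and Smad6, the inhibitory SMAD of the BMP branch, at log2 fold changes of -3.31 to -4.50. Of 19 target genes 7 rose and 4 fell in both HM-Wnt groups and 8 and 2 in both MM groups. Cdkn2b, a cell-cycle inhibitor induced by TGF-β, rose by 6.42 to 7.55, including in HM-Wnt with the receptor inhibitor present. Of 14 activin, BMP and GDF ligands and antagonists 4 rose and 7 fell, 4 and 6, 4 and 3, and 5 and 4, with Inhbb, an activin subunit, and Fstl3, an activin antagonist, higher by 4.67 to 6.53 and by 4.73 to 6.68 and Gdf2, which encodes BMP9, at log2 fold changes of -4.76 to -6.88. In the order of the 4 groups the list medians were -1.29, -1.61, 0.38 and 0.21 for latency and activation, -0.35, -0.45, -0.61 and -0.55 for receptors, 0.21, 0.29, 0.14 and 0.09 for SMADs and their regulators, 0.52, 0.49, 1.24 and 1.23 for target genes and -0.53, -0.48, -0.21 and 0.80 for activin, BMP and GDF genes. The latency median thus lay below 0 in HM-Wnt and above 0 in MM. Over the 5 lists 45, 42, 32 and 39 of 72 genes passed, or 62.5, 58.3, 44.4 and 54.2%. Of all genes tested 49.7, 51.8, 42.8 and 39.7% passed. Without hepatocyte replicate 3, 37, 39, 27 and 30 of 73 passed, and the share of all genes in that fit is not given here.

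On the move from HM-Wnt to MM, 15 of 70 genes of these lists passed over both times, or 21.4%, beside the 21.5% of all genes. Of the 13 latency genes 1 rose (Furin, 0.51) and 1 fell (Thbs1, -2.29), of 11 receptors 1 rose (Eng, 2.22) and 1 fell (Bambi, -0.71), and of 15 SMADs and their regulators 0 passed by edgeR, with 2 at an unadjusted p under 0.05. Target genes split, with 2 of 18 higher, Snai2 (1.55) and Angptl4 (0.76), and 4 lower, among them Igfbp3 (-2.81), Cdkn2b (-0.93) and Fn1 (-0.52). Of 13 activin, BMP and GDF genes 3 rose, the activin subunits Inhbc (2.48), Inhbe (2.09) and Inhba (1.49), and 2 fell, Bmp7 (-1.72) and the activin subunit Inhbb (-1.33). Angptl4, Fn1 and Inhbb were named after their values were seen. The medians of the 5 lists were 0.21, 0.00, -0.08, 0.38 and 0.20, beside -0.02 for all genes.

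Between fibrotic-like and homeostatic assembloids 0 genes of any list passed by edgeR with all 12 libraries, and 9 of 15 latency genes, 8 of 19 target genes, 3 of 15 SMADs and regulators, 2 of 11 receptors and 4 of 15 activin, BMP and GDF genes had an unadjusted p under 0.05. Without homeostatic 1-week replicate 2, 12 of 15 latency genes rose and 0 fell (Itgb8 4.16, Lrrc32 3.84, Ltbp4 3.81 and Fbn1 3.54), 13 of 19 target genes rose and 2 fell (Col3a1 4.64, Acta2 4.07, Col1a1 3.81 and Igfbp3 3.64), 6 of 15 SMADs and regulators rose and 1 fell, 4 of 11 receptors rose (Eng 2.7 and Acvrl1 2.42) and 1 fell, and 4 of 15 activin, BMP and GDF genes rose (Bmp2 3.44 and Inhbb 2.34) and 2 fell. Of all genes tested without that library 29.7% were called. The number of all genes at an unadjusted p under 0.05 with all 12 libraries is given above. The list medians without that library were 2.68, 2.26, 0.39, 0.39 and 0.94, beside 0.12 for all genes. Col1a1 and Col3a1 stand among the mesenchyme markers as well.

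The genes whose profile over the 27 libraries was most like each of the 10 were found among 4080 genes with a mean log2 CPM of 5 or more. The points share group structure, so the Pearson correlations of log2 CPM are descriptions. Tgfb2 was most like Tgif1 (0.932, and 0.916 without homeostatic 1-week replicate 2). Tgfb3 was most like Pamr1 (0.931), Ano1 (0.929) and Timp2 (0.924), and Tgfbr2 most like Iqgap1 (0.907), Wls (0.903) and F2r (0.899). Tgfbr3 and Tgfbi were both most like the proteoglycan gene Dcn (0.872 and 0.828), itself one of the mesenchyme markers. Ltbp1 followed Gsn (0.934) and Ppic (0.924), and Ltbp2 followed Mgp (0.953), Ctsk (0.948) and Mmp2 (0.944). Smad7 was most like Ube2h (0.860, and 0.762 without that library). Tgfbr1 and Tgfb1 had no close match, at 0.776 with Itm2a and 0.613 with Twsg1.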

How the data were processed

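The labels and methods describe SMARTseq2 libraries made from polyA RNA with Nextera tagmentation, which keeps no strand. The authors aligned reads with STAR to GRCm39 and counted them per gene with featureCounts, and they deposited 1 table of raw counts with TPM and gene length columns. For 80.8% of 21705 genes the deposited length lay within 5% of the distance from gene start to gene end, so TPM of genes with long introns are low. Of 37 libraries in the table, 27 have a title among the labels and 10 were not used. Groups were taken from titles. The total counts per library are given in the report, and 0 pairs of libraries were identical.

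Counts were tested with edgeR 4.0.16 in R 4.3.3 (TMM, minimum count 10, minimum total 15, quasi-likelihood F-test, 1 mean per group), with Benjamini-Hochberg adjustment over all genes tested and a threshold of 0.05. HepOrgs (12 libraries), HepOrgs with hepatocytes (15), assembloids (12) and the 9 libraries at 1 week in MM were fitted separately. CPM use TMM library sizes. DESeq2 1.42.0, RLE factors, no filter, limma 3.58.1 on log2(TPM + 1), a replicate block, each library left out and 1 fit of all 27 libraries were alternatives; voom with quality weights and the removal of 2 libraries together were chosen after seeing the data. Scripts were tested on simulated data. The genes, lists and named-gene rule (all 10, and up to 4 of each list) were chosen with earlier results of these data known. HepOrg libraries with the same replicate number deviated from their group means together in 18 of 18 pairs (lowest correlation 0.178), against 4 of 36 other pairs, so the block is given beside their results. 1 gene of the target list is not reported by name here.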

Additional observations from a re-analysis of the deposited data

How the results depend on the processing

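Counts of the 10 genes past the threshold changed as follows. For MM against HM-Wnt at 1 week (0), DESeq2 called 2 and the replicate block 1; at 2 weeks (0), DESeq2 called 2, the replicate block 1 and single omissions 0 to 1; over both times (1), DESeq2 called 2, no filter 2, the replicate block 2, the TPM scale 0, the fit of all 27 libraries 0 and single omissions 0 to 3. Against hepatocytes, the TPM scale gave 2 (1-week HM-Wnt, main 5), 3 (1-week MM, main 6) and 2 (2-week MM, main 5), the fit of all 27 libraries 3 in each MM group, and single omissions 3 to 5, 4 to 5, 4 to 6 and 4 to 5. For fibrotic-like against homeostatic assembloids at 1 week (0), DESeq2 called 2, the TPM scale 1, voom with quality weights 4, the removal of both doubted libraries 1 and the fit of all 27 libraries 3; at 2.5 weeks (0), DESeq2 called 3 and voom 5; over both times (0), DESeq2 called 6, the TPM scale 5, voom 8, the removal of both 9, the fit of all 27 libraries 6 and single omissions 0 to 7. For fibrotic-like assembloids against MM HepOrgs (0), DESeq2 called 3, the TPM scale 1, voom 9, the removal of both 7 and the fit of all 27 libraries 4. Single omissions gave 0 to 0 in the other comparisons. The cause of each change was not tested. RLE factors changed no count. The replicate numbers of assembloids and of the 1-week MM libraries did not pair (7 of 18 and 4 of 9 pairs over 0.1). Hepatocytes did not pair with HepOrgs (1, 0, 0 and 1 of 3 pairs over 0.1 in the 4 HepOrg groups), although the HepOrgs in that fit paired with each other. The block changed no count in these fits. Directions turned for Tgfbr1 against hepatocytes in 2-week MM (0.37 on the TPM scale, -0.0596 to 0.0935 on single omission) and in 1-week MM (-0.0647 to 0.148 on single omission), and for Smad7 between assembloids over both times (-0.012 with RLE factors, -0.0111 with DESeq2, -0.28 to 1.57 on single omission). Of the single-gene fold changes followed over the alternatives, 562 values kept direction and side, 78 passed anew, 31 no longer passed and 11 turned. Depth limited Tgfb1 and Tgfbi, with at most 53 counts in any library and with 11 libraries at 3 counts or fewer.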
